A study of Mus musculus with 7 samples.

Results

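The cells described here are those that the authors' gene-based clustering of mouse islet cells numbered 2 and named beta, called 2_beta below. They were taken as every barcode with that cluster name in the authors' merged cell table: 703 of 5907 kept cells, 619 of 4814 in replicate 1 and 84 of 1093 in replicate 2. They were compared within each library with the larger beta cluster 0_beta (882 and 205 cells) and with 4_beta (468 and 90 cells). Both libraries came from pancreatic islets of female 10-week-old C57BL/6 mice. Islets were freed with collagenase, dissociated with Accutase and loaded for a target of 4000 cells. The libraries are 5' single-cell cDNA made by the modified protocol (added dNTPs and longer extension), depleted of insulin cDNA with Cas9 and guide RNAs, and sequenced as long reads on a Nanopore instrument. Labels list 7 samples in 4 groups, and only the 2 libraries of this group were used. Whether each library is from its own animals is not stated, so the difference between replicates may be technical.

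Beta cells make insulin and amylin as prohormones, fold them in the endoplasmic reticulum (ER), cut them with convertases in secretory granules and release them when glucose is metabolised. Because of that load they lean on ER chaperones and on ER-associated degradation, which removes misfolded proteins, and on the unfolded protein response, which adjusts both. Another branch of stress signalling, the integrated stress response, acts through the transcription factor ATF4 and raises genes of amino acid synthesis and transport. Beta cells of one islet are known to differ from each other in such programmes.

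The clusters were made from the same gene counts that are compared here. Differences in gene level between them are therefore given as descriptions with no p-value, and a gene is called higher or lower only where it differed at least 2-fold the same way in both libraries. Cells of the 2 clusters compared were matched on their total of unique molecular identifiers (UMIs, which count molecules) in bins of 0.25 log2 units. Before matching, median UMIs per cell in 2_beta were 2116 in replicate 1 and 9430.5 in replicate 2. The corresponding medians were 2728.5 and 10550 in 0_beta, and 1510.5 and 6883.5 in 4_beta. Matching kept 479 and 81 cells of each cluster against 0_beta, with medians of 2267 against 2314 and of 9647 against 9698. Against 4_beta it kept 281 and 55 cells of each, with medians of 1888 against 1827 and of 9310 against 9242. The 2 libraries shared 5 barcodes among all kept cells and 0 among 2_beta cells. At 1000 UMIs per cell, 2_beta cells showed a median of 646 genes in replicate 1 and 645.5 in replicate 2, close to the 639 and 644 of 0_beta.

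**Figure D1:**
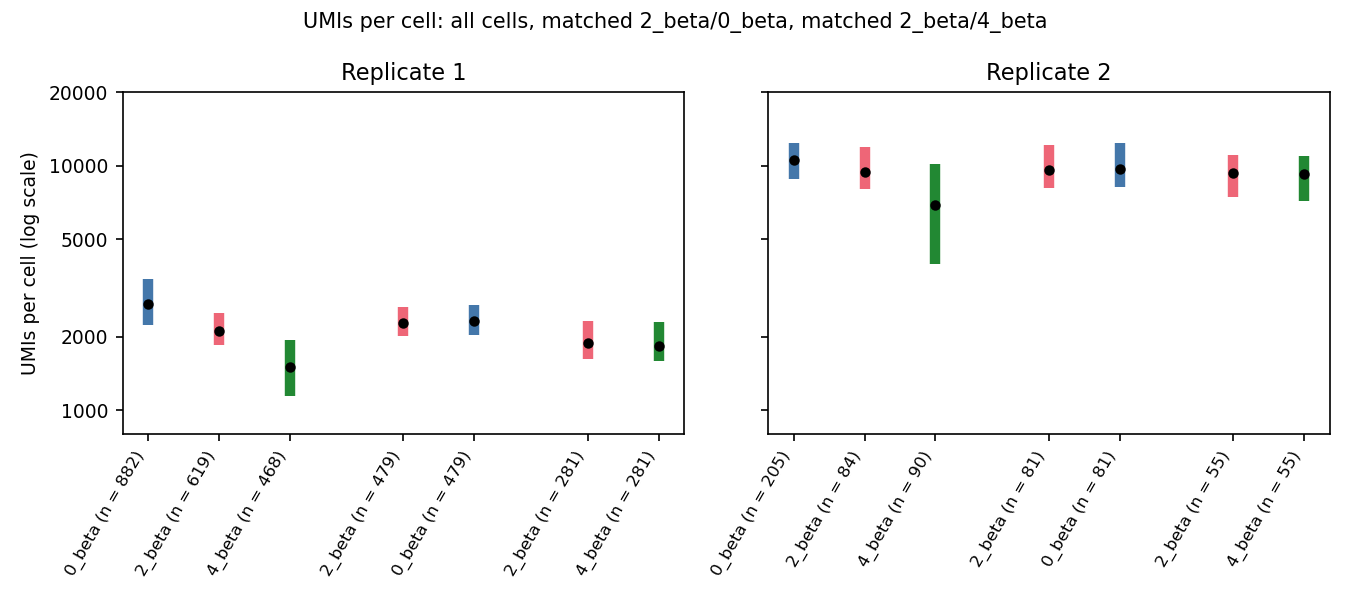
UMIs per cell on a log scale in 0_beta (blue), 2_beta (red) and 4_beta (green), for all cells, for cells matched between 2_beta and 0_beta and for cells matched between 2_beta and 4_beta. Bars span the 25th to the 75th percentile over cells and black points are medians. After matching, the medians of the clusters compared lie close together (2267 and 2314 in replicate 1 against 0_beta), whereas replicate 2 is deeper throughout.

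The beta label was checked against its markers. Levels are given in CPM, UMIs per 1000000 UMIs of the cluster, with TMM scaling in matched cells only. Iapp (amylin), Ins1 and Ins2 together made 127212 CPM in 2_beta in replicate 1 and 108104 in replicate 2, within the range of the other beta clusters (140649 and 112016 in 0_beta, 111327 and 101428 in 4_beta). Insulin levels are those left after depletion. In matched cells the log2 difference between 2_beta and 0_beta was -0.16 and -0.10 for Iapp, 0.03 and 0.15 for Ins1, and -0.13 and -0.01 for Ins2 in replicates 1 and 2. The 7 delta markers summed to 1219 and 1121 CPM in 2_beta, 553 and 683 in 0_beta, and 1420 and 3264 in 4_beta. Most of this in 2_beta was Sst (623 and 720), Pyy (415 and 322) and Rbp4 (174 and 78.4), whereas the delta transcription factor gene Hhex stood at 2.16 and 0 CPM, against 256 and 186 in cells named delta. The 10 alpha markers summed to 3944 and 5173 CPM in 2_beta, 3149 and 4546 in 0_beta, and 6005 and 5046 in 4_beta. The part of these markers in the differences below was not tested. The 10 stellate markers summed to 2.2 and 0. The authors' tables of the single libraries also named 99.8% of these cells beta in replicate 1 and 91.7% in replicate 2. There, 7 of the 84 cells of replicate 2 were named delta. Of the 6% of cells with the highest Scrublet doublet scores in each library, 10 and 3 lay in 2_beta.

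Against 0_beta at matched depth, 2_beta carried more RNA for the opioid precursor prodynorphin, for the ER degradation protein Derlin-3 and for the secreted peroxidase Gpx3, and less for the stress genes Nupr1, Atf5 and Eif4ebp1 and for tyrosine hydroxylase. The Derlin-3 difference rests on few UMIs, with limits given below. Of 5100 genes compared, 13 were called higher (0.255%) and 8 lower (0.157%). By any amount, 31.2% of genes were higher in both libraries and 31.6% lower. Few genes therefore set these clusters apart by 2-fold, and most differences between them were small.

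**Figure D2:**
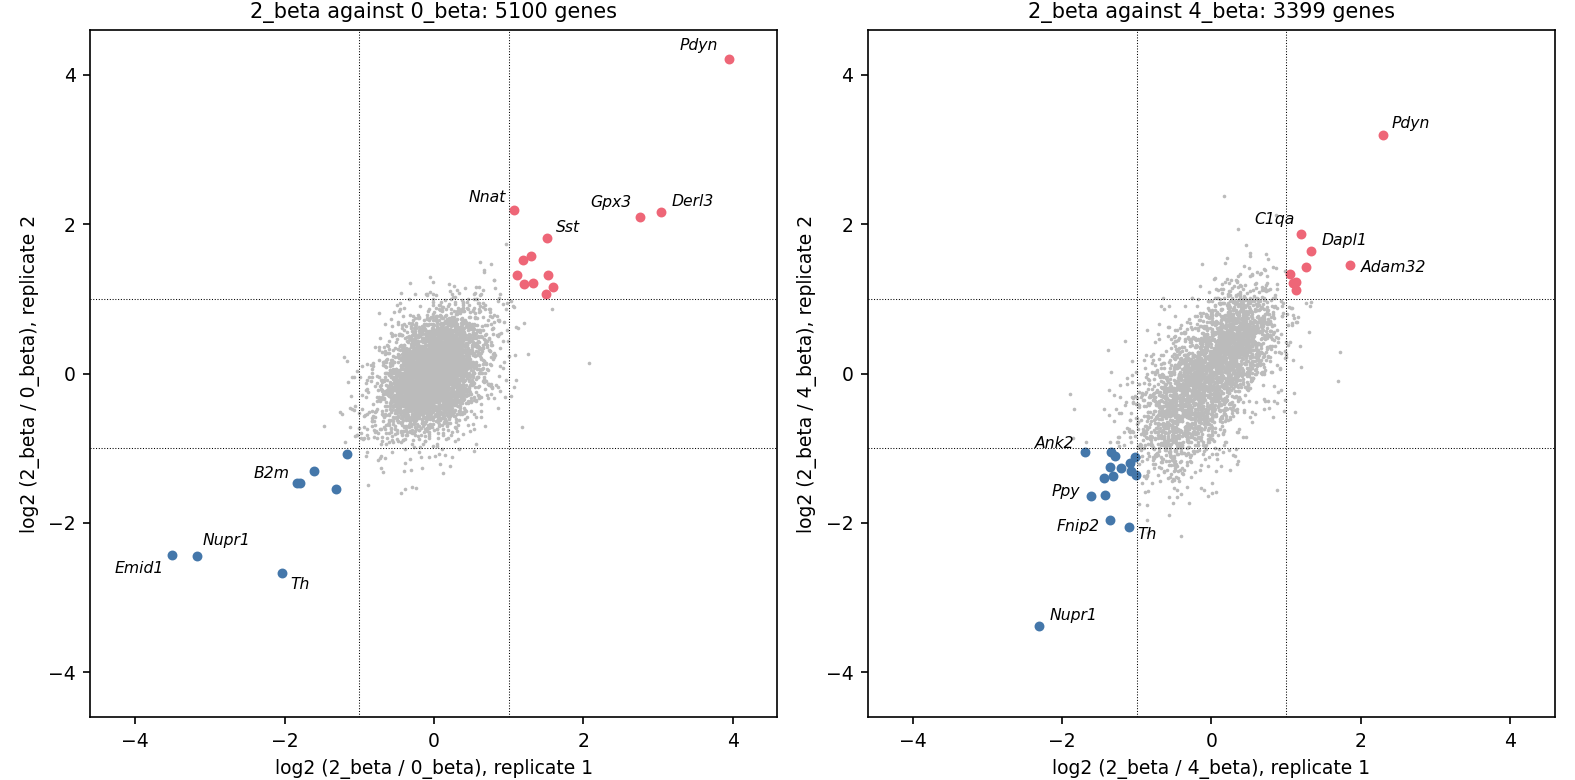
Log2 difference of CPM between 2_beta and 0_beta (left) or 4_beta (right) in depth-matched cells, replicate 1 on the x axis and replicate 2 on the y axis, with 1 point per gene. Dotted lines mark 2-fold, and red and blue points are genes at least 2-fold higher or lower in both libraries. Pdyn lies farthest to the upper right in both panels, at 3.95 and 4.21 against 0_beta.

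Among peptide ligands and their receptors, Pdyn (chromosome 2, 129686565 to 129699844, minus strand, mm10), which encodes the precursor of the dynorphin opioid peptides, differed most. It stood at 86.8 CPM in 2_beta and 5.16 in 0_beta in replicate 1, and at 144 and 7.27 in replicate 2. These values rest on 102 and 6 UMIs in replicate 1 and on 118 and 6 in replicate 2. The edgeR estimate was 4.17 ± 0.29 (SE) on the log2 scale. Here and below the SE is worked out from the F statistic and may be too small on so few UMIs. With all cells and no matching the estimate was lowest among the alternatives, at 3.31. Galr1, a galanin receptor, was at 65.5 against 28.4 CPM in replicate 1 and 70.7 against 24.2 in replicate 2. Ramp1, a subunit of receptors for calcitonin gene-related peptide, was at 62.1 against 24.9 and at 58.5 against 19.4. Neither receptor was called with a second random draw of cells or without matching, and both kept their direction.

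In the ER, Derl3 (chromosome 10, 75893413 to 75895941, plus strand), whose product helps move misfolded proteins out of the ER for degradation, was at 39.1 CPM in 2_beta and 4.30 in 0_beta in replicate 1. In replicate 2 it was at 56.0 and 12.1, and the edgeR estimate was 2.59 ± 0.35 (SE). Only 46 and 5 UMIs in replicate 1, and 46 and 10 in replicate 2, stand behind these values. At 1000 UMIs per cell, Derl3 was found in 3.89% of 2_beta and 0.794% of 0_beta cells in replicate 1. In replicate 2 it was found in 2.38% (2 of 84) and 3.90% (8 of 205), so at that depth the direction was not kept there, on few cells. Among cells named beta in every table it had too few UMIs to compare. Sdf2l1, a partner of the chaperone BiP, was at 575 against 371 in replicate 1 and at 690 against 331 in replicate 2, a log2 difference of 0.63 and 1.06. Creld2, an ER protein of the disulphide isomerase type, was at 208 against 136 and at 329 against 180 CPM, under 2-fold in both libraries.

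Genes of redox control lay on both sides. Gpx3, a secreted glutathione peroxidase, was at 231 against 33.5 CPM in replicate 1 and at 178 against 41.2 in replicate 2 (edgeR log2 2.50 ± 0.17, SE). Txnip, a glucose-responsive binding partner of thioredoxin, was at 477 against 157 and at 345 against 154. The metallothionein genes Mt1 and Mt2 lay on the other side, with log2 differences of -0.72 and -1.13 for Mt1 and of -0.74 and -1.16 for Mt2. Ftl1, the ferritin light chain, was at 4831 against 9236 CPM in replicate 1 and at 4182 against 7643 in replicate 2, just short of 2-fold. Gpx3 and Txnip were also abundant in other islet cells: Gpx3 reached 3871 and 3730 CPM in the main alpha cluster, and 2133 and 1752 in delta cluster 3. With UMIs per cell made equal, Gpx3 was found in 15.4% of 2_beta cells in replicate 1 and 15.5% in replicate 2. The shares were 3.63% and 1.95% in 0_beta, and 19.7% (interval 12.9 to 28.0) and 8.11% (1.70 to 21.9) in stellate and endothelial cells. The 2_beta shares were thus above those of 0_beta but within the intervals of stellate and endothelial cells. Whether the Gpx3 difference reflects expression or RNA from other cells was not tested.

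Other genes called higher had varied roles. Nnat, an imprinted gene whose product aids the handling of preproinsulin at the ER, was at 255 against 121 CPM in replicate 1 and at 272 against 59.4 in replicate 2. Syt5, a calcium sensor of vesicle release, was at 91.0 against 31.8 and at 88.9 against 42.4. Dapl1 was at 119 against 55.0 and at 233 against 93.3, and was not called without matching. Apbb1 (an adaptor that binds the amyloid precursor protein), Col6a3 (a collagen VI chain) and Ovol2 (a zinc finger transcription factor) had log2 differences between 1.20 and 1.53 in both libraries. Col6a3 and Ovol2 were not called with a second draw.

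Sst (somatostatin) was also called higher, at 696 against 242 CPM in replicate 1 and 733 against 208 in replicate 2. At 1000 UMIs per cell, 12% of 2_beta cells in replicate 1 and 20.2% in replicate 2 held an Sst UMI (21.3% and 71.4% with all UMIs). Stellate and endothelial cells, which do not make somatostatin, held one at 10.3% and 27.0% (16.6% and 62.2% with all UMIs), at median depths of 979 and 3407. In 0_beta the shares at 1000 UMIs were 7.60% and 11.2%. The 2_beta share was thus above that of 0_beta but within the interval of the stellate and endothelial cells (5.41 to 17.2 and 13.8 to 44.1). Shares count cells and not the level per cell. In replicate 2 the 84 cells of 2_beta held 606 Sst UMIs. Of these, 59 lay in 42 cells and 186 in 35 cells, the main transcript clusters 0 and 1 described below. Most of the Sst UMIs of replicate 2 thus lay in the few remaining cells. With all cells, Sst in transcript cluster 0 of replicate 2 was at 158 CPM in 2_beta and 140 in 0_beta. In transcript cluster 1 it was at 460 and 148. In replicate 1 these levels were 453 and 89.3 in transcript cluster 0, and 217 and 224 in transcript cluster 1. Whether the Sst difference reflects expression or RNA from other cells was not tested. Among cells that the authors' other tables also name beta, the log2 difference of Sst was 0.98 and it was not called.

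Genes called lower in 2_beta than in 0_beta included 3 of the 23 compared in a list of amino acid and integrated stress response genes. Over all genes compared, 0.157% were called lower. The list was drawn up after the values were seen, so its count beside that share is no measure of enrichment. Nupr1 (chromosome 7, 126623249 to 126630861, minus strand), a small stress-induced chromatin protein, was at 31.5 against 289 CPM in replicate 1 and at 56.0 against 306 in replicate 2 (edgeR log2 -2.82 ± 0.15, SE). Atf5, a transcription factor of this response, was at 160 against 489 and at 143 against 353. Eif4ebp1, a repressor of cap-dependent translation, was at 57.9 against 131 and at 62.1 against 132. Mthfd2, an enzyme of mitochondrial one-carbon metabolism, was at 105 against 208 and at 91.4 against 166, just short of 2-fold. Th (tyrosine hydroxylase, which makes the dopamine precursor) was at 26.4 against 109 and at 18.3 against 119. B2m, the light chain of MHC class I, was at 17.0 against 60.2 and at 19.5 against 54.5. Emid1, a matrix glycoprotein, was at 5.96 against 73.1 CPM in replicate 1 and at 15.8 against 87.2 in replicate 2. Baiap2, an actin regulator, and Cib3, a calcium-binding protein, had log2 differences between -1.31 and -1.84. All 8 genes called lower were called again with all cells and with a second draw. Among cells named beta in every table, Eif4ebp1 was not called, at -1.03 on average, and Baiap2 had too few UMIs to compare.

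Promoters of genes on both sides of this pattern are shown because elements known for these stress responses can be looked for in them. The motifs were picked after the gene differences were known. For 11 of the 13 genes called higher and 7 of the 8 called lower, RefSeq promoters (GRCm38.p6, the same build as mm10) were at hand, spanning 250 bases before to 50 bases after a start. The ER stress element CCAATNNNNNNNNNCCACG, searched on both strands, was in 39 of 32851 promoters (0.119%), and the composite site of ATF4 and C/EBP factors, TGATGNAA, was in 1304 (3.97%). Derl3 was the one gene called higher against 0_beta with an ER stress element, and Nupr1 the one called lower with the composite site. Creld2, called against 4_beta only, and the chaperone gene Hspa5, called in neither comparison, hold an ER stress element too. Of the genes called lower against 4_beta, Ank2 and Nupr1 held the composite site. No searched motif was in the 250 bases before a start of Sdf2l1, Fkbp11, Atf5 or Mthfd2. Only promoters with a match are printed, so they do not stand for all genes searched. The 250 bases before the start are printed on the gene's strand, 5' to 3', with the motif letters that are not N in capitals. A match describes these letters only, not a bound site.
Derl3, chr10:75893148-75893397, plus strand: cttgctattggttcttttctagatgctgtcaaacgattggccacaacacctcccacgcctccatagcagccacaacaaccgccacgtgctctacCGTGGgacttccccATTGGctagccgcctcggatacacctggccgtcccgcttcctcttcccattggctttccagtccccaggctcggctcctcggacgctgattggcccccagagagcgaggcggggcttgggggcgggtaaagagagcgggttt
Creld2, chr15:88819396-88819645, plus strand: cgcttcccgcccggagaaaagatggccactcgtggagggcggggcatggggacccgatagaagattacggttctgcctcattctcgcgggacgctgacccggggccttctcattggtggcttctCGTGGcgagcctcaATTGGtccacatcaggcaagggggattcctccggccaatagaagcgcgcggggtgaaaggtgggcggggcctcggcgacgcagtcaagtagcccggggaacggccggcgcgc
Hspa5, chr2:34771840-34772089, plus strand: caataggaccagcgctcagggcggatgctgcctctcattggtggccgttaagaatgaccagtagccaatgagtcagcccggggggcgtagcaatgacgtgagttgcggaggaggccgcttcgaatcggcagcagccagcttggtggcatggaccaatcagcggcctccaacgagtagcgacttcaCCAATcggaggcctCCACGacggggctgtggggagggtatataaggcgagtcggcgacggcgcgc
Nupr1, chr7:126625471-126625720, minus strand: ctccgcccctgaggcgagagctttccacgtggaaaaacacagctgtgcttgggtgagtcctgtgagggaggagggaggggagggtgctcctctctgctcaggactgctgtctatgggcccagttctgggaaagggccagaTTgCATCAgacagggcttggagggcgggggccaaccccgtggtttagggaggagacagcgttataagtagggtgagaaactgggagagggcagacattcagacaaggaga
The element begins at position -156 from the start in Derl3, -126 in Creld2 and -65 in Hspa5, and the composite site at -110 in Nupr1. In Derl3, Creld2 and Nupr1 the match is to the reverse complement. Of 32 genes with a promoter in a list of 40 ER chaperone and degradation genes, 9 held the ER stress element (9 of 36 promoters). Of 33 in a list of 40 amino acid and integrated stress response genes, 12 held the composite site (12 of 40 promoters). Both lists were drawn up after the values were seen.

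Summed over all cells, the leading genes were set side by side across the 4 beta clusters. Pdyn was at 84.3 and 140 CPM in 2_beta in replicates 1 and 2, at 8.59 and 13.1 in 0_beta, at 18.2 and 16.4 in 4_beta, and at 71.6 and 18.3 in 5_beta. In replicate 1, then, 5_beta came near 2_beta for this gene, and in replicate 2 it did not. Derl3 was highest in 2_beta of the 4 beta clusters in both libraries, at 39.6 and 54.6, with 5_beta next in replicate 2 at 26.0. Nnat and Dapl1 were likewise highest in 2_beta, Nnat at 258 and 273 and Dapl1 at 120 and 227. Gpx3 and Txnip were higher in 5_beta (1051 and 463 for Gpx3) than in 2_beta (251 and 180). Nupr1 in 2_beta (33.8 and 54.6) lay between 5_beta (6.88 and 18.3) and the other beta clusters (145 to 307), as did Atf5. Outside the beta clusters, delta cluster 14 held as much Pdyn as 2_beta in replicate 2 (144, but 30.9 on 2 UMIs in replicate 1). It held more Derl3 in replicate 2 (88.9) and more Dapl1 in both (278 and 322). Nnat there was at 402 in replicate 1, above 2_beta, and at 244 in replicate 2. Pdyn was at 69.7 and 23.2 in delta cluster 8, and at 40.1 and 11.5 in delta cluster 3. Th in 2_beta (26.6 and 19.0) was close to 5_beta (24.8 and 32.1) and under 0_beta and 4_beta (78.2 to 119).

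**Figure D3:**
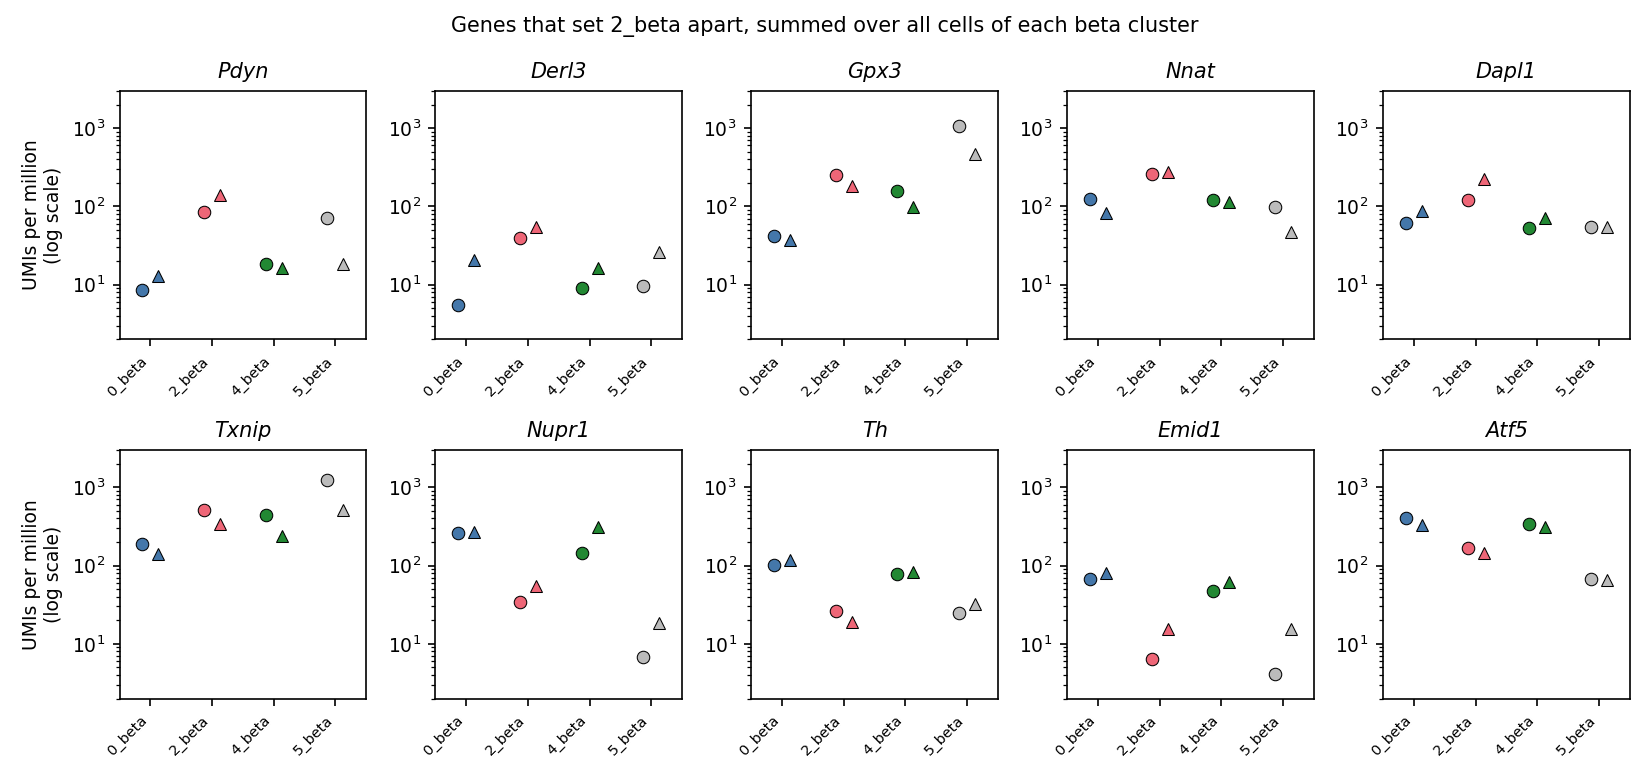
CPM on a log scale for 10 genes in beta clusters 0, 2, 4 and 5, summed over all cells of each cluster with no scaling beyond the total. Circles are replicate 1 and triangles replicate 2. Pdyn is at 84.3 and 140 in 2_beta against 8.59 and 13.1 in 0_beta, and Nupr1 at 33.8 and 54.6 against 261 and 265.

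Shares of cells were read for Pdyn and Nupr1. A Pdyn UMI was found in 11.6% of 2_beta cells in replicate 1 and 26.2% in replicate 2, against 1.93% and 10.2% of 0_beta cells. At 1000 UMIs per cell the share in 2_beta was 6.81% (95% exact binomial interval 4.95 to 9.09, 617 cells) and 9.52% (4.20 to 17.9, 84 cells). In 0_beta it was 0.68% (0.25 to 1.47, 882 cells) in replicate 1 and 0 of 205 cells in replicate 2, where the interval reaches 1.78%. Stellate and endothelial cells held no Pdyn UMI in either library, among 247 and 37 cells. Nupr1 went the other way: at 1000 UMIs it was found in 1.94% and 4.76% of 2_beta cells and in 19.4% and 17.6% of 0_beta cells, with 10.3% and 10.8% of stellate and endothelial cells. The intervals cover counting error only.

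Against 4_beta, 2_beta again carried more RNA of Pdyn and less of Nupr1, Th and Atf5. The ER genes Creld2 and Fkbp11 were also called higher, and the nuclear noncoding RNA Neat1 lower. Of 3399 genes compared, 9 were called higher (0.265%) and 16 lower (0.471%). By any amount 39.8% of genes were higher in both libraries and 36.5% lower. Of the 3397 genes compared in both comparisons, 3 were called higher in both (Pdyn, Dapl1 and Nnat), 3 lower in both (Nupr1, Th and Atf5) and 0 in opposite directions. The comparisons share the 2_beta cells, so these counts are not independent, and the calls of Dapl1, Nnat, Th and Atf5 each depended on a setting, given with their values. Other genes called against 0_beta had too few UMIs to be compared with 4_beta: Derl3, Galr1, Ramp1, Col6a3, Ovol2, B2m, Emid1 and Baiap2.

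Pdyn was at 79.6 CPM in 2_beta and 15.4 in 4_beta in replicate 1, and at 189 and 19.7 in replicate 2 (edgeR log2 2.88 ± 0.31, SE). Among ER proteins, Creld2 was at 180 against 85.8 and at 355 against 140, and Fkbp11, a prolyl isomerase of the ER, was at 275 against 113 and at 504 against 187. Manf, a secreted ER stress protein, was at 1178 against 662 and at 2010 against 750, so that it passed 2-fold in replicate 2 only. Txn1 (thioredoxin) was at 130 against 58.3 and at 295 against 136. Adam32, Cmbl and C1qa completed the genes called higher. Adam32 reads were mostly of a transcript annotated as a retained intron (Adam32-205, 85.5% and 85.0% of the gene's UMIs in 2_beta). Without matching, Creld2, Fkbp11, Txn1 and C1qa were not called, and with a second draw Adam32, Nnat and Txn1 were not, while Cmbl had too few UMIs. Among cells named beta in every table, Pdyn and Cmbl had too few UMIs to compare, and Nnat and Txn1 were not called.

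Nupr1 was at 27.7 against 141 CPM in replicate 1 and at 28.1 against 301 in replicate 2 (edgeR log2 -2.92 ± 0.26, SE). Atf5 was at 171 against 365 and at 142 against 327, and Th at 36.3 against 78.9 and at 22.1 against 94.5. Neat1, the RNA scaffold of nuclear paraspeckles, was at 58.8 against 160 and at 102 against 317. Ppy (pancreatic polypeptide) was at 197 against 606 and at 383 against 1201, for a mean log2 difference of -1.63. Without the cells of highest doublet score this was -0.68, and among cells named beta in every table it was -0.31, so that Ppy was not called in either. Of the 16 genes called lower, 10 were not called with all cells and 7 of the 15 compared were not called with a second draw. Among those lost in both were Ank2, Clasp2, Herc2, Ncoa2, Slc25a36 and Syt14. Nupr1, Th, Atf5, Neat1, Ppy and Fnip2 were called in both. With a minimum of 10 UMIs per gene, 8 of the 16 were not called, among them Atf5 and Th, whose mean log2 differences were then -1.01 and -1.45.

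Quality measures differed between the clusters too. The mitochondrial share of UMIs, summed over cells, was 1.35% and 3.00% in 2_beta, 1.60% and 3.75% in 0_beta, and 1.88% and 5.17% in 4_beta. Transcripts annotated with a retained intron made 2.60% and 2.55% of transcript UMIs in 2_beta, 2.32% and 2.53% in 0_beta, and 3.32% and 4.24% in 4_beta. All 7 compared genes of the mitochondrial genome were lower in 2_beta in both libraries against both clusters, with a median log2 difference of -0.40 against 0_beta and -0.69 against 4_beta. The part of RNA quality in the gene differences was not tested.

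Gene lists were read by their counts beside those of all genes compared, for which the median log2 difference was -0.0043 against 0_beta and 0.0097 against 4_beta. Of all genes compared with 0_beta, 31.2% were higher in both libraries and 31.6% lower. Against 4_beta these shares were 39.8% and 36.5%. Of 36 genes of ER folding and the unfolded protein response compared with 0_beta, 26 were higher in both libraries and 5 lower, with a median of 0.31. None of them passed 2-fold in both. Against 4_beta, 19 of 35 were higher and 7 lower, with a median of 0.36, and Creld2 was called. Of 16 prohormone and granule genes, 14 were higher than in 0_beta and 1 lower, with a median of 0.25, and 10 were higher than in 4_beta and 3 lower. Pcsk1, the prohormone convertase, had log2 differences of 0.53 and 0.85 against 0_beta, Pam, the amidating enzyme, 0.56 and 0.81, and Cpe, carboxypeptidase E, 0.37 and 0.61.

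The lists of cytosolic ribosomal proteins and of nuclear oxidative phosphorylation were lower in 2_beta than in 0_beta and higher than in 4_beta. Genes of the mitochondrial genome, given above, were lower against both. Cytosolic ribosomal protein genes were lower than in 0_beta for 23 of 29 and higher for 1, with a median of -0.25, and higher than in 4_beta for 25 of 25, with a median of 0.25. Rps24 stood at 1074 against 1601 in 0_beta in replicate 1 and at 2313 against 3566 in replicate 2. Nuclear genes of oxidative phosphorylation were lower than in 0_beta for 16 of 23 and higher for 2, and higher than in 4_beta for 17 of 21. Of 8 nuclear and long noncoding RNAs, 7 were lower in 2_beta than in 4_beta in both libraries, with a median of -0.76, whereas against 0_beta 3 were higher and 1 lower. Malat1 was at 4048 against 7352 CPM in 4_beta in replicate 1 and at 4538 against 10018 in replicate 2.

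Identity genes lay on both sides, and some of the counts that follow were near the shares over all genes given above. Of 34 genes of beta maturity and identity compared with 0_beta, 18 were higher in both libraries and 11 lower, with a median of 0.10; Nnat was called higher and Th lower. Of 20 islet transcription factors, 4 were higher and 6 lower, with a median of -0.02, and 0 were called. Against 4_beta, 11 of 32 identity genes were higher and 15 lower, with a median of -0.06, and 13 of 17 transcription factors were lower and 2 higher, with a median of -0.28 and 0 called. Ion channel genes were lower than in 4_beta for 9 of 12 and higher for 1, with a median of -0.39. The list of amino acid and integrated stress response genes, drawn up after the values were seen, had 15 of 23 members lower than in 0_beta and 2 higher (median -0.19), and 15 of 18 lower than in 4_beta and 1 higher (median -0.47).

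**Figure D4:**
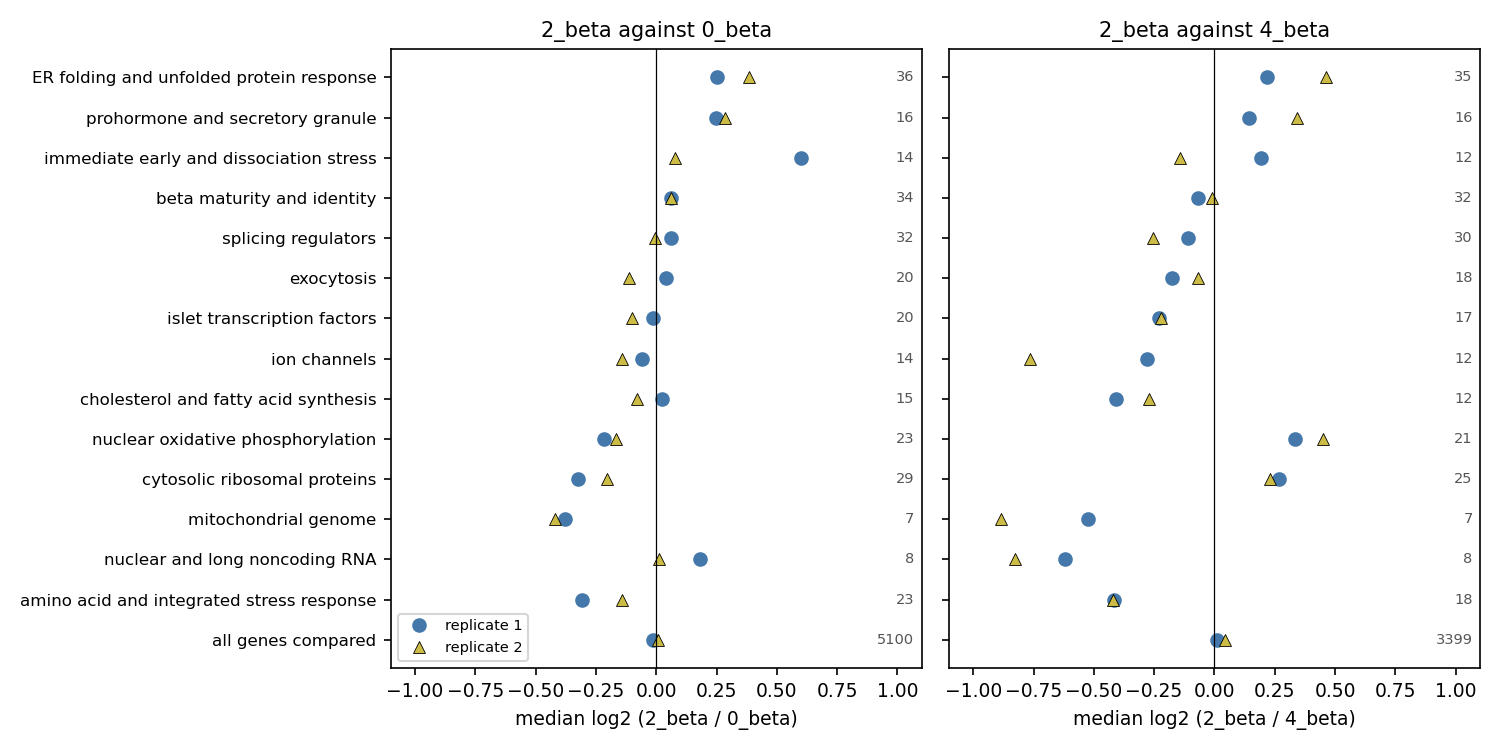
Median log2 difference over the members of each list between 2_beta and 0_beta (left) or 4_beta (right), in replicate 1 (circles) and replicate 2 (triangles), with the number of members compared at the right of each row. The ER folding list lies above 0 in both panels (0.25 and 0.38 against 0_beta), and ribosomal protein genes lie below 0 against 0_beta (-0.32 and -0.20) and above 0 against 4_beta (0.27 and 0.23).

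C1qa, a subunit of complement component C1q and a macrophage marker, was called higher in 2_beta than in 4_beta, at 237 against 103 CPM in replicate 1 and 247 against 66.9 in replicate 2. Against 0_beta its log2 difference was 0.76 and 1.47. C1qb and C1qc, which encode the partner subunits, were at 0.72 CPM each in 2_beta in replicate 1 and at 0 in replicate 2. Cells named macrophage held 6379 and 7114 CPM of C1qa, 8182 and 9921 of C1qb, and 4631 and 5372 of C1qc. Of the 9 macrophage markers, 3 were at 0 in 2_beta in replicate 1 and 4 in replicate 2, and C1qa made 92.4% and 88.7% of the list's UMIs. All its UMIs were of 1 annotated transcript, C1qa-201. C1qa was found in 34.9% and 76.2% of 2_beta cells. At 1000 UMIs per cell it was found in 18.2% and 22.6%, and in 0 of 117 and 0 of 37 stellate and endothelial cells, where the exact interval reaches 3.10% and 9.49%. Cd79a, a B cell gene, made 99.6% and 98.6% of the UMIs of the lymphocyte list in 2_beta, at 203 and 84.3 CPM.

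The share of each transcript within its gene was not used to form the clusters and was tested. Of 3907 genes with at least 2 transcripts, 2 differed between 2_beta and 0_beta (0.0512%) by edgeR's diffSpliceDGE with Simes p-values adjusted by Benjamini-Hochberg. In Rpl22 (a ribosomal protein gene on chromosome 4, 152325742 to 152334071), the long coding transcript Rpl22-204, annotated at 2051 bases against 474 for Rpl22-201, made 11.1% of the gene's UMIs in 2_beta and 2.98% in 0_beta in replicate 1. In replicate 2 it made 2.73% and 0.532%, and the gene's adjusted p was 0.0189. In Rasgrf1 (an imprinted exchange factor for Ras on chromosome 9, 89909908 to 90026977), Rasgrf1-202 made 9.83% against 3.04% in replicate 1 and 15.5% against 3.03% in replicate 2, with an adjusted p of 0.0361. These shares rest on 27, 19, 9 and 6 UMIs of Rpl22-204 and on 17, 13, 15 and 10 of Rasgrf1-202. In depth-matched cells, without the library block, with transcripts of at least 50 UMIs, or without 2_beta of either replicate, 0 genes passed.

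Against 4_beta, 0 of 2964 genes passed with the same edgeR test (percent called 0), 169 had an unadjusted p under 0.05 and the smallest adjusted p was 0.328. With edgeR's own expression filter, which keeps 1198 genes, 5 passed: Iapp, Pcsk2, Hspa8, Ftl1 and Rad1, named here after their values were seen. The genes that lead the clusters' differences gave little room for isoform change: Pdyn, C1qa and Creld2 were represented by 1 transcript each. Nnat was split between Nnat-202 (59.7% and 65.4% in 2_beta, 53.6% and 60.3% in 0_beta) and Nnat-205 (30.5% and 28.0%, against 29.6% and 20.5%), with an adjusted p of 1.0 for the gene.

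Within 2_beta, the authors' clustering by transcripts split the cells mainly in 2. Transcript cluster 0 held 70.4% of 2_beta cells in replicate 1 and 50.0% in replicate 2, and transcript cluster 1 held 20.8% and 41.7%. Median UMIs were 2026 and 8708 in the first and 2794 and 11357 in the second. Cells of transcript cluster 1 carried more Pdyn (142 and 218 CPM, against 63.2 and 64.3), more Fkbp11 (369 and 579, against 217 and 378) and more Creld2 (291 and 415, against 176 and 239). Depth was not matched here, and the part of depth was not tested. The gap to 0_beta was present in both: 0_beta cells of transcript cluster 0 held 2.52 and 6.59 CPM of Pdyn, and those of transcript cluster 1 held 11.8 and 16.0. Nupr1 stood at 25.5 and 50.9 in 2_beta cells of transcript cluster 0 against 225 and 265 in 0_beta cells of the same cluster, and at 64.2 and 56.9 against 276 and 268 in transcript cluster 1. A smaller group of 39 and 5 cells, in transcript cluster 4, had 1656 CPM of Ppy, 1198 of Sst and 822 of Gpx3 in replicate 1.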

How the data were processed

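The deposited tables hold raw UMI counts of each cell, by gene and by transcript, for 2 long-read libraries. Genome build mm10 and Seurat are named per the submitters' processing notes; the aligner, the counter, the use of strand and the choice behind the word subset in the table names are not given in the sources used here. Kept barcodes were those in the authors' cell tables (4814 of 6395 and 1093 of 2124, holding 11012364 and 12092393 gene UMIs), and each cell's sum equalled the authors' total. Counts were summed per cluster and library and scaled by TMM (edgeR 4.0.16, R 4.3.3). Genes with at least 50 UMIs over both clusters in each library were compared, with a prior count of 0.5. edgeR's quasi-likelihood fit (library and cluster) gave log2 fold changes. The fit gives no SE, so each SE was worked out as the size of the log2 fold change divided by the square root of the F statistic. It is approximate and may be too small for genes on few UMIs. Isoforms were tested on the 6 sums of 0_beta, 2_beta and 4_beta with the library as block, which every cluster shares, for transcripts with at least 10 UMIs and 5% of their gene, at a false discovery rate of 0.05. Of 69994 transcripts, 69648 were joined to GENCODE M21. Scrublet (scanpy 1.11.5) called 0.125% and 1.19% of cells doublets, so its automatic call was not used and the 6% with the highest scores were left out as an alternative. Scripts were tested on simulated data. Per comparison, the rule for named genes took the 12 largest differences in each direction and up to 4 members of each list, and further genes are named because they were called. Members and lists were chosen with earlier results of these data known.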

Additional observations from a re-analysis of the deposited data

How the results depend on the processing

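Against 0_beta, 21 genes were called. The count was 4 with every cell thinned to 1000 UMIs, where only 844 genes had enough UMIs, and 100 with a minimum of 10 UMIs per gene. With 1 library alone (leaving out replicate 1 or replicate 2) it ranged from 76 to 96, since 1 library then decides. Against 4_beta, the count of 25 became 2 of 397 genes with thinning, 214 with the minimum of 10 UMIs, and 159 to 308 with 1 library alone. The higher and lower split against 0_beta was 12 to 15 without matching and 14 to 13 with a second draw, against 13 to 8, and against 4_beta without matching it was 12 to 13, against 9 to 16. Every called gene kept its direction under each alternative in which it could be compared. In settings that reuse the same counts, such as 1 library alone, direction could hardly change, since a call already needs 2-fold in each library. With thinning, only 2 of the 13 genes called higher and 2 of the 8 called lower against 0_beta could be compared. Derl3 was not among them. Against 4_beta these were 1 of 9 and 1 of 16.

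Isoform calls against 0_beta went from 2 genes to 0 in depth-matched cells, 0 without the replicate block, 0 with at least 50 UMIs and 10% of the gene, 0 without either 2_beta sum, 1 without the highest doublet scores and 3 with filterByExpr, which added Ftl1. Against 4_beta they went from 0 to 5 with filterByExpr (edgeR), and stayed at 0 in the others. Why these counts moved was not tested. The replicate block changed no count of called genes, 21 and 25 with and without it, because those calls come from each library's own difference. Replicate 2 has 84 cells of 2_beta, which limits the precision of shares of cells there.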
